A study of Homo sapiens with 12 samples.

Results

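The cyclins, the cyclin-dependent kinases (CDKs) and the proteins that restrain or act on these kinases were followed in MDA-MB-231 cells given a miR-145-5p mimic, with or without silencing of AGO2. The set held 49 genes taken by name and not by a cut on their values, though with earlier results of these data known. It had 6 cell cycle CDKs, 11 other CDKs, 9 cell cycle cyclins, 10 other cyclins, 10 CDK inhibitors and phosphatases, and 3 pocket proteins. All 49 were represented on the array and passed the filter on dim probes, among 18253 genes tested. Of their 555 probes 500 were kept, from 1 to 24 a gene with a median of 10.

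MDA-MB-231 is an established human breast cancer line of the triple-negative, mesenchymal-like kind. The 4 groups were cntrl, with control mimic and control siRNA oligonucleotides, mimic145, with the miR-145-5p precursor mimic, sirnaAGO2, with Dicer-substrate siRNAs against AGO2, and sirnaAGO2+mimic145, with both. The mimic and its control were used at 5 nM, and the siRNAs against AGO2 and the NC1 control at 500 pM for 72 h. Each group had 3 biological replicates, hybridised to 1 array each. The labels name no control siRNA for mimic145 and no control mimic for sirnaAGO2, while the study refers, for the arrays, to the conditions of companion assays, in which the scrambled siRNA accompanied miR-145-5p and AGO2-silenced cells were given the control mimic. The question put to these arrays was how miR-145-5p alters gene expression when AGO2 is present or depleted.

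A CDK is inactive on its own and phosphorylates its substrates once a cyclin is bound. D-type cyclins with CDK4 and CDK6, then cyclin E with CDK2, phosphorylate the retinoblastoma protein and its relatives (the pocket proteins), which releases E2F transcription factors and opens the way to S phase. The inhibitors of the CIP/KIP and INK4 families hold these kinases back, CDC25 phosphatases remove inhibitory phosphates from them, and another branch of the family, among them CDK8, CDK9, CDK12 and CDK19, acts on RNA polymerase II and the Mediator complex.

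The agent itself is shown first, since every comparison with the mimic rests on it. The mature strand of human miR-145-5p in RefSeq lies on the plus strand of chromosome 5 (GRCh38.p14, chr5:149430661-149430683) and has 23 bases, with the seed, bases 2 to 8, in capitals.
hsa-miR-145-5p: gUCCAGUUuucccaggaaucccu
Sites for this seed in the messages of the 49 genes were not analysed here.

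All values below are log2 intensities after quantile normalisation, averaged over the kept probes of a gene, and a difference of 1 on this scale is a doubling. Levels of different genes were not compared, since they rest on different probes. A gene was said to rise, fall or change when its adjusted p from limma, a linear model fitted to all 12 arrays with the replicate number as a block, was under 0.05 over all 18253 genes. The targeted gene AGO2 read 9.21, 9.14 and 9.01 in cntrl replicates 1 to 3 and 8.35, 8.44 and 8.42 in sirnaAGO2, without overlap. It was lower by 0.71 on the log2 scale (log2 difference -0.71, SE 0.08, limma adjusted p = 0.00488), which left 0.609 of the cntrl level. Its call was lost without sirnaAGO2 replicate 1 (adjusted p 0.00701 to 0.0519 over the 12 single arrays left out) and in all 3 fits that left out a whole replicate, and the reduction was partial. AGO2 was higher in mimic145 than in cntrl (0.28, SE 0.08, limma adjusted p = 0.0300). Of the 4 markers of the line, VIM, CD44, CAV1 and AXL, every one was detected, while of the 4 markers it should lack PGR had 0 of 9 probes above background, ESR1 6 of 14, CDH1 7 of 16 and ERBB2 25 of 30, so that 3 of these 4 gave signal on some probes. Among 8 markers of blood, endothelial and stromal cells 1, 2 and 1 passed the test in the 3 comparisons between groups that follow, with DCN higher in both with the mimic. DCN rested on 2 of 9 probes, of which 0 were above background on all 12 arrays. Between 60.5% and 77.3% of spots were well above background on an array, fewer on the mimic array than on its partner on 5 of 6 slides. The mimic array always sat at the second position of its slide, so that position and mimic cannot be told apart. The cntrl and mimic145 arrays always shared a slide, as did the sirnaAGO2 and sirnaAGO2+mimic145 arrays. Silencing was therefore compared between slides, and within a replicate silencing and slide cannot be told apart.

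Against cntrl, 11 of the 49 genes changed in mimic145, 6 lower and 5 higher, where 22.6% of all genes changed, 11.0% lower and 11.6% higher. This is 22.4% of the set, close to the share over all genes. At an unadjusted p under 0.05 there were 21 genes (35.4% of all genes). The median log2 difference was 0.051 over the set and 0.012 over all genes. CDK6, CCNG2, CDC25A, CDK16, CCNE1 and CCNG1 fell, and CDK14, CDKN2D, CCND1, CDKN1A and CDK5 rose. With AGO2 silenced, 3 genes changed between sirnaAGO2+mimic145 and sirnaAGO2 (7.25% of all genes), or 6.12% of the set. CCNE1 and CDK6 were lower (3.03% of all genes) and CDKN1B higher (4.22%), and 8 genes had an unadjusted p under 0.05 (28.8% of all genes). Silencing of AGO2 by itself changed 4 genes against cntrl (2.58% of all genes), or 8.16% of the set. CDK19, CDK8 and CDK14 were higher (0.888% of all genes) and CDKN1B lower (1.69%). On silencing 16 genes had an unadjusted p under 0.05 (19.0% of all genes), 13 of them higher. The split by direction at this p was not counted over all genes. A list of 56 other cell cycle regulators, read below, had 16 genes at this p, 14 of them higher. The median log2 difference on silencing was 0.067 over the set, 0.13 over that list and -0.033 over all genes. The cause of this lean was not tested. The difference between the mimic effects in silenced and unsilenced cells passed for 0 of 49 genes by limma (0.0110% of all genes), with 10 at an unadjusted p under 0.05 (16.8% of all genes).

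The 2 comparisons with the mimic share no arrays, but the cntrl arrays enter both the mimic and the silencing comparison, and the sirnaAGO2 arrays enter both the silencing comparison and the mimic comparison in silenced cells. Leaving out a whole replicate, which leaves 2 arrays a group, ended 6 of the 11 calls with the mimic whichever replicate it was (CCNE1, CCNG1, CDC25A, CDK5, CDKN1A and CDKN2D), and 4 for some replicates: CDK6 without replicate 3, CCND1 without replicate 1, and CCNG2 and CDK16 without replicate 1 or 2. The call for CDK14 was kept in each of these fits. All 3 calls in silenced cells and all 4 on silencing were lost whichever replicate was left out. With 3 arrays a group an exact permutation test over 2 groups cannot give a p below 0.1, so that single genes were judged by the fit over all genes.

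**Figure D1:**
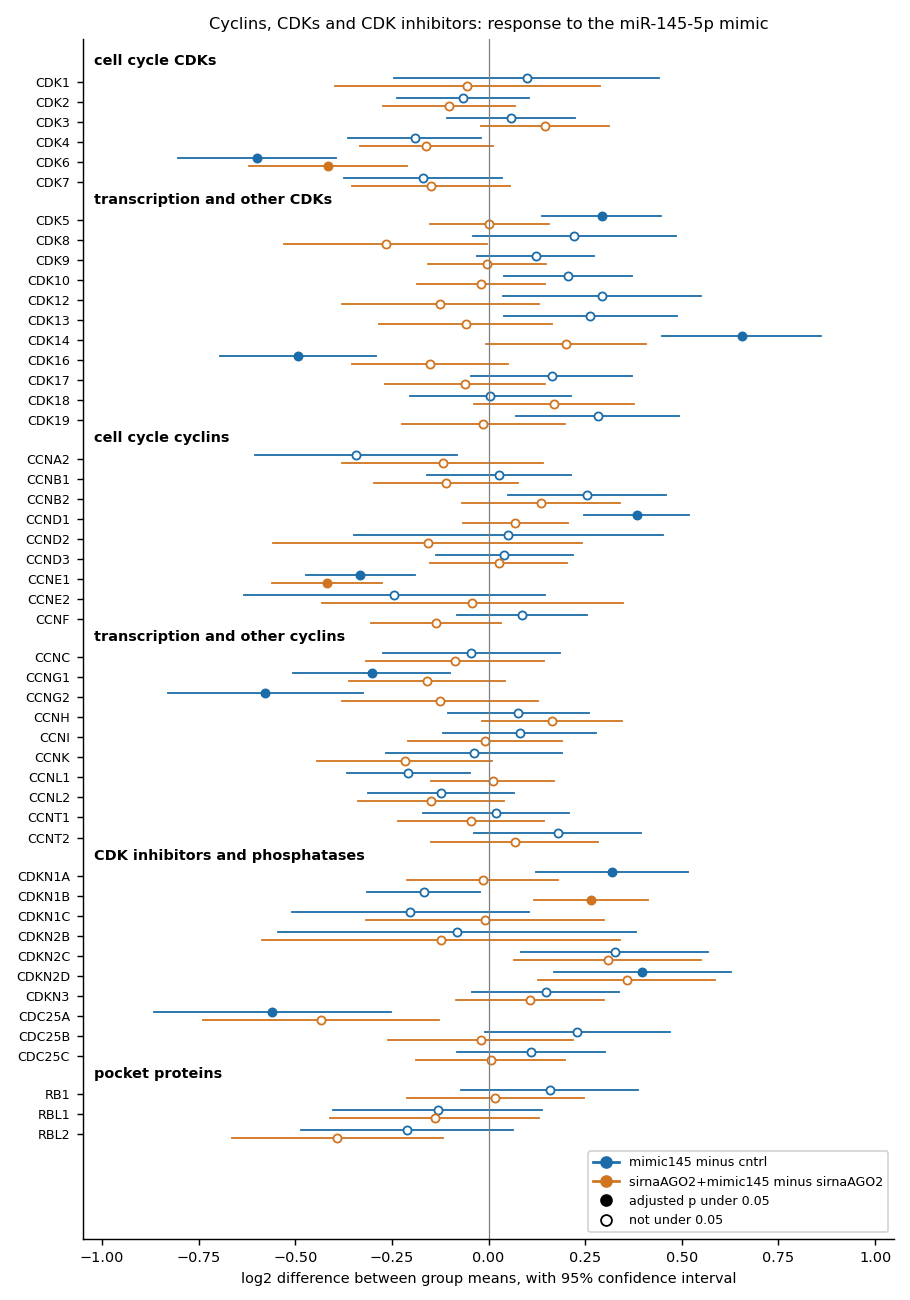
Log2 difference with its 95% confidence interval for each of the 49 genes, ordered by role, in mimic145 against cntrl (blue) and in sirnaAGO2+mimic145 against sirnaAGO2 (orange), with filled points for an adjusted p under 0.05. There are 11 filled blue points, 6 of them left of 0, and 3 filled orange points, those of CDK6, CCNE1 and CDKN1B.

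Among the 6 CDKs that drive the cell cycle, CDK6 was the gene that changed with the mimic, in both backgrounds. CDK6, the partner of D-type cyclins in G1 phase, read 9.17, 8.96 and 9.27 in cntrl and 8.56, 8.56 and 8.48 in mimic145. Every mimic145 array lay below every cntrl array, and CDK6 fell by 0.60 (log2 difference -0.60, SE 0.09, limma adjusted p = 0.00199), to 0.66 of the cntrl level. In silenced cells it read 9.31, 9.21 and 9.22 without the mimic and 9.01, 8.64 and 8.85 with it. The groups were again apart, and CDK6 fell by 0.41 (log2 difference -0.41, SE 0.09, limma adjusted p = 0.0339). This call was lost in 6 of 12 fits without a single array, those without cntrl replicate 1, any sirnaAGO2 array, or sirnaAGO2+mimic145 replicate 2 or 3 (adjusted p 0.0239 to 0.157 over the 12). The mimic effects on CDK6 differed by 0.18 between backgrounds (95% confidence interval -0.10 to 0.47, limma adjusted p = 0.481), so that a difference was not shown, and the interval does not show that the effects are alike. Silencing alone gave 0.12 (adjusted p = 0.518). The study named CDK6 and CCNG1 from these same arrays, and their direction here is therefore not independent evidence.

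Its closest relative CDK4, which binds the same cyclins, was at -0.19 (SE 0.08, adjusted p = 0.107) with the mimic and did not pass. It read 11.36, 11.49 and 11.12 in cntrl and 11.08, 11.27 and 11.05 in mimic145, lower in each replicate pair, with overlapping groups. CDK1, the kinase of mitotic entry, CDK2, the partner of cyclins E and A, CDK3 and CDK7, the CDK-activating kinase, lay between -0.17 and 0.10 with the mimic in unsilenced cells. Neither these genes nor CDK4 passed in any comparison between groups.

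Of the 11 other CDKs 3 changed with the mimic (27.3%, where 22.6% of all genes did) and 3 on silencing (27.3%, where 2.58% of all genes did). Their median log2 difference was 0.22 in mimic145 against cntrl, with 10 of 11 estimates above 0, and -0.020 in silenced cells, with 3 of 11 above 0. On silencing alone the median was 0.18, against -0.033 over all genes, again with 10 of 11 above 0. As the mimic and silencing comparisons share the cntrl arrays, these medians are not separate observations.

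CDK14, which works with cyclin Y at the cell membrane and in Wnt signalling, had the largest rise of the set with the mimic. It read 5.97, 6.23 and 6.23 in cntrl, 6.82, 6.86 and 6.72 in mimic145, 6.54, 6.71 and 6.55 in sirnaAGO2 and 6.89, 6.75 and 6.77 in sirnaAGO2+mimic145. The cntrl arrays were the lowest of all, and did not overlap with any other group. CDK14 rose by 0.66 with the mimic (SE 0.09, limma adjusted p = 0.00142) and by 0.46 on silencing (SE 0.09, limma adjusted p = 0.0396). In silenced cells the mimic gave 0.20 (SE 0.09, adjusted p = 0.182). After background correction by the normexp method CDK14 was at 0.35 with the mimic, still called, and at 0.21 on silencing, where the call was lost.

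CDK16, a kinase activated by cyclin Y, went the other way. It read 10.23, 10.24 and 10.08 in cntrl and 9.61, 9.68 and 9.78 in mimic145, without overlap, and fell by 0.49 (log2 difference -0.49, SE 0.09, limma adjusted p = 0.00481). All 16 kept probes were lower. In silenced cells the readings were 10.29, 10.43 and 10.47 without the mimic and 10.32, 10.30 and 10.11 with it. These groups overlapped, and the log2 difference of -0.15 did not pass (adjusted p = 0.294). CDK5, a kinase best known from neurons and activated by p35, rose by 0.29 (SE 0.07, limma adjusted p = 0.0149) in unsilenced cells. Its readings of 9.16, 9.50 and 9.47 in cntrl and 9.45, 9.70 and 9.86 in mimic145 overlapped as groups, and were higher within each replicate pair. In silenced cells CDK5 was at 0.00 (95% confidence interval -0.15 to 0.16). Its call in mimic145 was lost without cntrl replicate 1, cntrl replicate 3 or mimic145 replicate 3, with a log2 difference of 0.25 to 0.34 over the single arrays left out.

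CDK8 and its paralogue CDK19 are the alternative kinases of the Mediator kinase module, and both rose when AGO2 was silenced. CDK19 read 6.72, 6.63 and 7.03 in cntrl and 7.49, 7.42 and 7.57 in sirnaAGO2. The groups did not overlap, all 11 kept probes were higher, and CDK19 rose by 0.70 (SE 0.09, limma adjusted p = 0.0123), or 1.62-fold. CDK8 read 7.22, 6.70 and 7.06 in cntrl and 7.72, 7.44 and 7.55 in sirnaAGO2, also without overlap. It rose by 0.58 (SE 0.12, limma adjusted p = 0.0402), with all 10 kept probes higher. Whether probes of one paralogue also take up the message of the other was not tested. CCNC, the cyclin C that both kinases bind, was at -0.07 (adjusted p = 0.755). With the mimic, CDK19 was at 0.28 in unsilenced cells (adjusted p = 0.0606) and at -0.01 in silenced cells, and CDK8 at 0.22 and -0.27, none of which passed.

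The rise of CDK19 on silencing was not called without cntrl replicate 1 or any one of the sirnaAGO2 arrays, with a log2 difference of 0.63 to 0.77 over the 12 arrays left out in turn. For CDK8 the call was lost in 9 of 12 such fits and kept without mimic145 replicate 2, sirnaAGO2+mimic145 replicate 1 or sirnaAGO2+mimic145 replicate 2, with 0.49 to 0.65. For CDK14 it was lost in 10 of 12 and kept without sirnaAGO2+mimic145 replicate 1 or 2, with 0.36 to 0.53, and it was also lost with an intensity trend in the variance. With normexp correction CDK19 was at 0.42 and CDK8 at 0.32, both still called. Some kept probes of these genes were dim. Those above background on all 12 arrays were 6 of 11 for CDK19, 7 of 10 for CDK8 and 4 of 10 for CDK14. Fits with only these probes kept each of these calls on silencing, and that for CDK14 with the mimic.

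**Figure D2:**
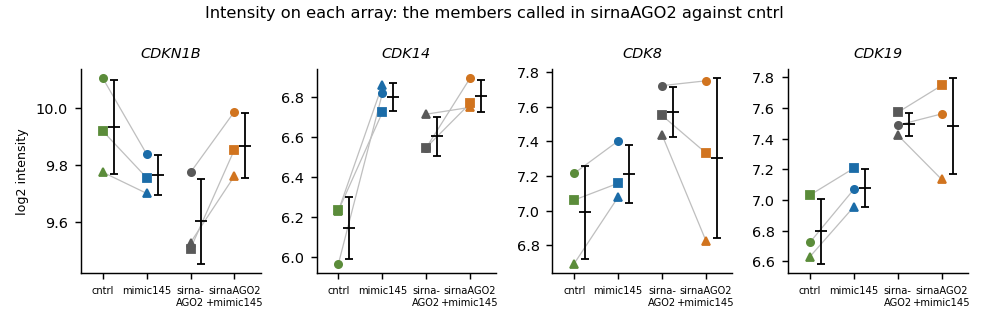
Log2 intensity of CDKN1B, CDK14, CDK8 and CDK19 on each of the 12 arrays, by group, with circles, triangles and squares for replicates 1, 2 and 3, lines joining the arrays of one slide, and mean and SD (n = 3) beside the points. CDK14, CDK8 and CDK19 lie higher in sirnaAGO2 than in cntrl, while CDKN1B lies lower and is higher again in sirnaAGO2+mimic145.

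Of the remaining CDKs, CDK12 and CDK13, which phosphorylate the tail of RNA polymerase II with cyclin K, were at 0.29 (adjusted p = 0.0954) and 0.26 (adjusted p = 0.0890) with the mimic. CDK9, the kinase of the elongation factor P-TEFb, was at 0.12, CDK10 at 0.21, CDK17 at 0.16 and CDK18 at 0.00. None of these 6 passed in any comparison.

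The cell cycle cyclins held a fall and a rise. CCNE1, the cyclin E1 that activates CDK2 at the entry to S phase, fell with the mimic in both backgrounds. It read 8.42, 8.50 and 8.31 in cntrl and 8.13, 8.12 and 7.99 in mimic145, and 8.60, 8.58 and 8.58 in sirnaAGO2 and 8.23, 8.17 and 8.11 in sirnaAGO2+mimic145. Within each background the groups were apart. The log2 difference was -0.33 in unsilenced cells (SE 0.06, limma adjusted p = 0.00592) and -0.42 in silenced cells (SE 0.06, limma adjusted p = 0.0128). With the median over probes in place of the mean the value in unsilenced cells was -0.53. The mimic effects differed by -0.09 (95% confidence interval -0.29 to 0.11, limma adjusted p = 0.636). In silenced cells the call for CCNE1 was lost without sirnaAGO2 replicate 2, sirnaAGO2 replicate 3 or sirnaAGO2+mimic145 replicate 3, with -0.44 to -0.38 over the single arrays left out. The related CCNE2 was at -0.24 and -0.04, and passed in neither.

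CCND1, the cyclin D1 that activates CDK4 and CDK6, rose with the mimic in unsilenced cells. It read 11.29, 11.37 and 11.29 in cntrl and 11.60, 11.85 and 11.66 in mimic145. The groups did not overlap, all 5 probes were higher, and CCND1 rose by 0.38 (SE 0.06, limma adjusted p = 0.00238), or 1.30-fold. In silenced cells it read 11.28, 11.39 and 11.28 without the mimic and 11.32, 11.51 and 11.34 with it. These ranges overlapped, the log2 difference of 0.07 did not pass (adjusted p = 0.471), and silencing alone gave 0.00 (95% confidence interval -0.14 to 0.14). CCND3 was at 0.04 with the mimic, and CCND2, which rested on 2 of 6 probes, at 0.05.

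The cyclins of S, G2 and M phase did not pass in any comparison. CCNA2, cyclin A2, was at -0.34 with the mimic (adjusted p = 0.0625) and 0.37 on silencing (adjusted p = 0.130). CCNB1 was at 0.03 and CCNB2 at 0.26 with the mimic, and CCNF, a cyclin that serves an SCF ubiquitin ligase, was at 0.31 on silencing (adjusted p = 0.0641). On silencing the median of the 9 cell cycle cyclins was 0.18, against -0.033 over all genes, with 7 of 9 estimates above 0 and 0 called by limma, 4 of them at an unadjusted p under 0.05.

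Of the 10 other cyclins the 2 that changed were the G-type cyclins, and both fell. CCNG1, cyclin G1, a target of p53, read 8.74, 8.60 and 8.85 in cntrl and 8.54, 8.40 and 8.35 in mimic145. The groups were narrowly apart, and CCNG1 fell by 0.30 (log2 difference -0.30, SE 0.09, limma adjusted p = 0.0394), to 0.811 of the cntrl level. The call for CCNG1 was lost in 9 of 12 fits without a single array, every one that left out a cntrl, mimic145 or sirnaAGO2 array, with a log2 difference of -0.36 to -0.21 over the 12. In silenced cells CCNG1 was at -0.16 (SE 0.09, adjusted p = 0.270), from readings of 8.78, 8.67 and 8.77 without the mimic and 8.78, 8.52 and 8.43 with it. These overlapped, and the mimic effects on CCNG1 differed by 0.14 between backgrounds (95% confidence interval -0.14 to 0.43, limma adjusted p = 0.582).

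CCNG2, cyclin G2, known for higher levels in cells that leave the cycle, read 8.54, 8.42 and 8.53 in cntrl and 7.93, 7.63 and 8.19 in mimic145. The groups were apart, and CCNG2 fell by 0.58 (log2 difference -0.58, SE 0.11, limma adjusted p = 0.00657). In silenced cells the readings were 8.44, 8.26 and 8.34 without the mimic and 8.27, 7.89 and 8.50 with it. They overlapped, and the log2 difference was -0.13 (adjusted p = 0.484). The partners of the transcription kinases, CCNC, CCNH, CCNK, CCNT1 and CCNT2, and CCNI, CCNL1 and CCNL2 did not pass in any comparison. Over the 10 cyclins of this group the median was -0.041 with the mimic, -0.066 with the mimic in silenced cells and -0.045 on silencing.

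The inhibitors of the INK4 and CIP/KIP families moved by small amounts. CDKN1A, which encodes p21, a CIP/KIP inhibitor and a target of p53, read 9.70, 9.78 and 9.83 in cntrl and 10.18, 9.95 and 10.13 in mimic145. The groups were apart, and CDKN1A rose by 0.32 (SE 0.09, limma adjusted p = 0.0288). In silenced cells it read 9.68, 9.71 and 9.61 without the mimic and 9.80, 9.55 and 9.60 with it, overlapping, at a log2 difference of -0.02 (adjusted p = 0.927). The call for CDKN1A was lost without cntrl replicate 1, cntrl replicate 2, mimic145 replicate 1 or mimic145 replicate 3, with 0.24 to 0.38 over the single arrays left out.

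CDKN2D, which encodes the INK4 inhibitor p19, read 9.05, 9.45 and 9.09 in cntrl and 9.47, 9.69 and 9.61 in mimic145. The lowest mimic145 array lay just above the highest cntrl array, and CDKN2D rose by 0.40 (SE 0.10, limma adjusted p = 0.0220), on 3 probes. In silenced cells it was at 0.36 (SE 0.10, adjusted p = 0.0641). The call for CDKN2D was lost without cntrl replicate 1, cntrl replicate 3, mimic145 replicate 1 or mimic145 replicate 3, with 0.32 to 0.48. Another INK4 gene, CDKN2C (p18), was at 0.33 in unsilenced cells (adjusted p = 0.0571) and 0.31 in silenced cells (adjusted p = 0.102), higher in each of the 3 replicate pairs of both. CDKN2B (p15) rested on 1 of 5 probes, which was not above background on all 12 arrays. It was at -0.08 (SE 0.20), a value with the widest error of the set. Whether CDKN2B was expressed was not tested. CDKN1C (p57) and CDKN3, a CDK phosphatase, did not pass in any comparison.

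CDKN1B, which encodes p27, the CIP/KIP inhibitor of cyclin E and CDK2, had opposite directions of the mimic effect in the 2 backgrounds. It read 10.10, 9.77 and 9.92 in cntrl, 9.84, 9.70 and 9.75 in mimic145, 9.77, 9.53 and 9.51 in sirnaAGO2 and 9.99, 9.76 and 9.85 in sirnaAGO2+mimic145. Replicates 2 and 3 of sirnaAGO2 lay clearly below every cntrl array and replicate 1 at the level of the lowest, and with the mimic the silenced cells lay between 9.76 and 9.99. CDKN1B fell by 0.33 on silencing (log2 difference -0.33, SE 0.06, limma adjusted p = 0.0385). The mimic raised it by 0.26 in silenced cells (SE 0.06, limma adjusted p = 0.0445), while in unsilenced cells it was at -0.17 (SE 0.06, adjusted p = 0.0971). Both called values rest on the same sirnaAGO2 arrays and on 3 probes. The rise with the mimic was not called in any of the 12 fits without a single array (0.22 to 0.29), and the fall on silencing was called in 1 of them, without sirnaAGO2+mimic145 replicate 2 (-0.37 to -0.29 over the 12).

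CDC25A, the phosphatase that activates CDK2 at the G1/S transition, read 7.62, 7.71 and 7.67 in cntrl and 7.24, 7.32 and 6.75 in mimic145. Replicate 3 of mimic145 was the lowest by some distance, the groups were apart, and CDC25A fell by 0.56 (log2 difference -0.56, SE 0.14, limma adjusted p = 0.0177) with all 15 probes lower. In silenced cells it read 7.93, 7.91 and 7.96 without the mimic and 7.77, 7.41 and 7.31 with it. These were also apart, but the log2 difference of -0.43 did not pass (SE 0.14, adjusted p = 0.0793). The call for CDC25A in mimic145 was lost without cntrl replicate 2, cntrl replicate 3 or mimic145 replicate 3, with -0.68 to -0.41 over the single arrays left out, and CDC25A was at -0.31, still called, with normexp correction. The mitotic phosphatases CDC25B and CDC25C were at 0.23 and 0.11 with the mimic and at 0.36 (adjusted p = 0.110) and 0.37 (adjusted p = 0.0593) on silencing.

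None of the 3 pocket proteins passed. RB1, the retinoblastoma protein, was at 0.16 with the mimic and 0.42 on silencing (SE 0.10, adjusted p = 0.0657). RBL1 (p107) was at -0.13 with the mimic, and RBL2 (p130) at -0.21 in unsilenced and -0.39 in silenced cells (adjusted p = 0.0780), lower in every replicate pair of both.

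**Figure D3:**
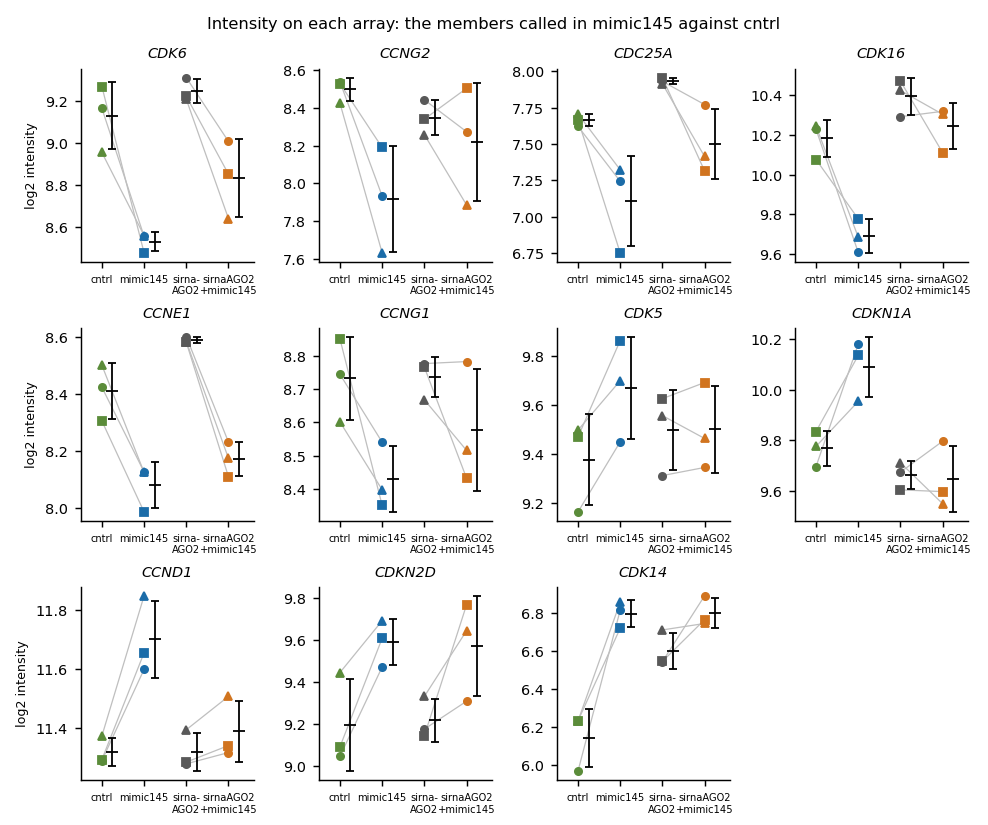
Log2 intensity of the 11 genes called in mimic145 against cntrl on each of the 12 arrays, by group, with circles, triangles and squares for replicates 1, 2 and 3, lines joining the arrays of one slide, and mean and SD (n = 3) beside the points. For 10 of the 11 genes the cntrl and mimic145 arrays do not overlap, CDK5 being the exception. They do not overlap either for CDK7, CDK10 and CCNT2, which were not called and are not shown. The share of all genes without overlap was not counted.

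The array carries probes along the exons of a gene, and the probes of a gene did not always move alike. Of the 8 probes of CDK6, 7 were lower with the mimic in each background, from -0.91 to 0.08 in unsilenced cells and from -0.77 to 0.32 in silenced cells. CCNE1 had 9 of 11 probes lower in both, with a range from -0.90 to 0.55 in unsilenced cells. CCNG2 ranged from -1.30 to 0.18 in unsilenced cells with 9 of 10 probes lower, and CCNG1 from -0.70 to 0.05 with 8 of 9 lower. By contrast the probes of CDK16 (-0.64 to -0.27), CDC25A (-1.19 to -0.26), CCND1 (0.28 to 0.46) and CDK14 (0.14 to 1.08) all lay on one side of 0 in unsilenced cells. The probes of a gene share their arrays and are no replicates.

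**Figure D4:**
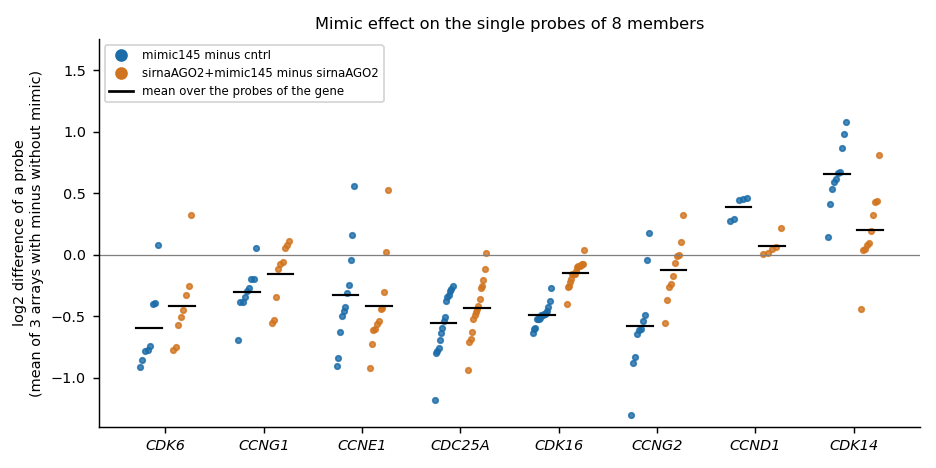
Log2 difference of each kept probe of 8 genes, as the mean of 3 arrays with the mimic minus 3 without, in unsilenced (blue) and AGO2-silenced cells (orange), with a bar at the mean over probes. All blue points of CDK16 and CDC25A lie below 0 and all blue points of CCND1 and CDK14 above it, while CDK6, CCNG1, CCNE1 and CCNG2 have probes on both sides.

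Whether the mimic acted differently on a gene once AGO2 was silenced was tested as the difference between the 2 mimic effects. No member passed by limma. The methods' paired t-test, applied to the same difference, gave 8 genes at a p of at most 0.05. Over all genes this test gave 1889. After Benjamini-Hochberg adjustment it gave 0 in the set and 0 over all genes. The 10 genes at an unadjusted p under 0.05, by limma, are given as a description. For CCNG2 and CDK16, which fell in unsilenced cells, the mimic effect was less negative in silenced cells by 0.45 (SE 0.16, adjusted p = 0.218) and 0.34 (SE 0.13, adjusted p = 0.235).

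For 7 of the 10 the mimic effect was lower in silenced cells. These were CDK8 (-0.49), CDK14 (-0.45), CDK12 (-0.42), CDKN1A (-0.33), CDK13 (-0.32), CCND1 (-0.31) and CDK5 (-0.29), with limma adjusted p from 0.137 to 0.292. Of these, CDK14, CDKN1A, CCND1 and CDK5 had risen in unsilenced cells, and in silenced cells their log2 differences were 0.20, -0.02, 0.07 and 0.00. The difference between backgrounds in replicates 1 to 3 was -0.36, -0.34 and -0.31 for CDKN1A, which varied least of the 10 genes, -0.25, -0.29 and -0.33 for CDK5 and -0.27, -0.36 and -0.31 for CCND1.

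The smallest p belonged to CDKN1B, whose mimic effects differed by 0.43 (SE 0.09, limma adjusted p = 0.0896). Its replicate pairs gave -0.27, -0.07 and -0.16 in unsilenced cells and 0.21, 0.23 and 0.35 in silenced cells. CDKN1B was the 1 gene of the 49 for which every pair of one background lay below 0 and every pair of the other above it. How many of all genes had such pairs was not counted, so the pattern is given as a description. CDKN1B passed in 3 of 27 alternatives: after normexp correction (0.43), where probes had to be above background on every array (0.43), and by the methods' paired t-test without adjustment. In the other 24, among them every fit without a replicate or an array, it did not pass (adjusted p up to 0.587).

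**Figure D5:**
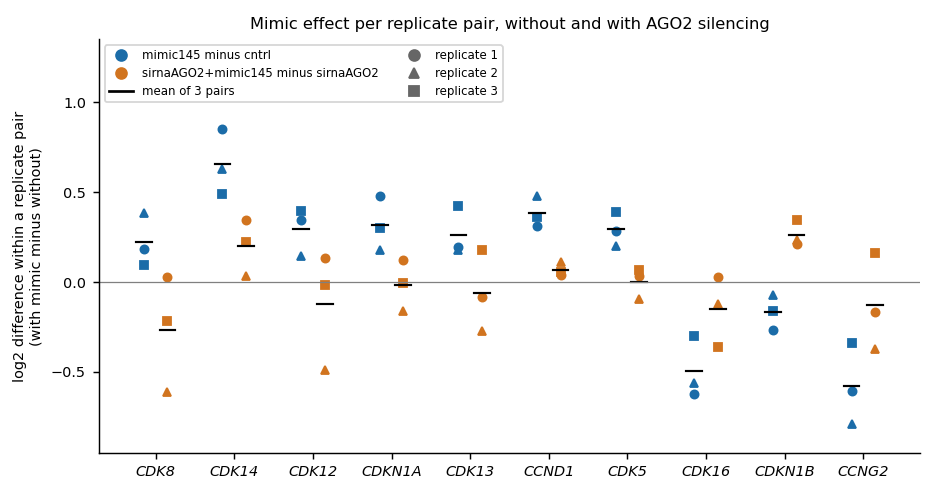
Log2 difference within each replicate pair, with the mimic minus without, for the 10 genes with an unadjusted p under 0.05 for the difference between backgrounds, in unsilenced (blue) and AGO2-silenced cells (orange), with a bar at the mean of 3 pairs. The 3 pairs of CDKN1B lie below 0 in unsilenced cells and above 0 in silenced cells.

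Other regulators of the same machinery were read from a list of 56 genes, among them E2F factors, DREAM subunits, ubiquitin ligase subunits and further cyclin and CDK partners. With the mimic in unsilenced cells 16 of 56 changed (28.6%), 5 lower and 11 higher, in silenced cells 5 (8.93%) and on silencing 2 (3.57%), where 22.6%, 7.25% and 2.58% of all genes did. CABLES1, which links CDKs to the kinases that phosphorylate them, had the largest fall with the mimic, at -0.80 (SE 0.10, limma adjusted p = 0.000885), and was at -0.21 in silenced cells (adjusted p = 0.196). GMNN, the geminin that blocks relicensing of replication origins, fell by 0.47 (log2 difference -0.47, limma adjusted p = 0.0115). E2F5, a repressive partner of the pocket proteins, rose with the mimic by 0.57 (limma adjusted p = 0.00121) and on silencing by 0.78 (limma adjusted p = 0.00284), comparisons that share the cntrl arrays. E2F3 rose by 0.32 and 0.40 in the same 2 comparisons. Of the 7 kept probes of E2F5, 4 were above background on all 12 arrays and 2 on no cntrl array. Those 2 were kept through other groups, and their part in the rises of E2F5 was not tested. In silenced cells the mimic lowered RBBP4 (-0.41) and MED13 (-0.30), a subunit of the Mediator kinase module, and raised CCNDBP1 (0.34), CDK20 (0.34) and CCNO (0.30), and all 5 had changed the same way in unsilenced cells.

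A list of 23 p53 target genes was read because CDKN1A and CCNG1 belong to that group and went opposite ways. With the mimic 8 of 23 changed (34.8%), 3 lower and 5 higher, with a median of -0.045, where 22.6% of all genes changed, 11.0% lower and 11.6% higher. RRM2B, a subunit of ribonucleotide reductase, fell by 0.82 (log2 difference -0.82, limma adjusted p = 0.00344) and TP53I3 by 0.42 (log2 difference -0.42). GDF15 rose by 0.68, AEN by 0.51, TIGAR by 0.42 and ZMAT3 by 0.39. MDM2, the ligase that degrades p53, was at -0.09 (adjusted p = 0.642). In silenced cells ZMAT3 was the 1 gene that changed with the mimic (0.36), and on silencing TP53INP1 fell by 0.57 (log2 difference -0.57). Dim probes limit RRM2B and ZMAT3, with 2 of 8 and 1 of 3 kept probes above background on all 12 arrays. MDA-MB-231 carries a mutant p53, a background fact of the line.

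The split of the calls depended on the scaling. With each array scaled to its 75th percentile, 14 genes were called with the mimic in unsilenced cells, 6 lower and 8 higher, and 6 in silenced cells, 2 lower and 4 higher. With the deposited log2 table the numbers were 12, 7 lower and 5 higher, and 5, 2 lower and 3 higher. The genes called here were among those called in each of these 4 cases. The split over all genes moved with the scaling too. In unsilenced cells 51.3% of all calls were higher here, 58.3% of 3890 with the 75th percentile and 54.7% of 4384 with the deposited table. In silenced cells the shares were 58.2%, 80.1% of 2393 and 66.5% of 2035. Without the replicate block 7 genes were called with the mimic in unsilenced cells (1987 of all genes). In the other 2 comparisons between groups 0 were called (78 of all genes with the mimic in silenced cells and 48 on silencing).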

How the data were processed

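Groups and replicate numbers came from the labels, and doses, times and the order of normalisation from the labels and the methods. For each array the authors deposited the one-colour processed intensity from Agilent Feature Extraction 10.7.3.1, corrected for background but not normalised between arrays, and 1 further file of log2 values for the whole series, quantile normalised by the authors. The files use build hg19, so no gene coordinates are given.

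Here the 411345 non-control spots of each array were quantile normalised and log2 transformed, and 304 to 462 outlier spots an array were left out. Probes were named through their transcript accession and a RefSeq table (209671 of 233164). A probe was kept if all its spots were well above background throughout at least 1 group (142929 named probes), and kept probes were averaged by gene. No read depth applies to arrays, and the 3 arrays a group limit the precision. limma 3.58.1 (lmFit, eBayes) in R 4.3.3 with the data.table package (1.17.8) fitted 4 groups and the replicate number to all 12 arrays, with Benjamini-Hochberg adjustment over 18253 genes. The replicate numbers in the labels pair the arrays: deviations from the group means correlated at 0.148 to 0.576 where numbers matched (18 pairs of arrays) and at -0.497 to 0.201 for the other 36. Plots used Python 3.11.15, matplotlib 3.10.9 and pandas 2.3.3.

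The members and lists were chosen with earlier results of these data known. Genes named are CDK6, CCNG1, AGO2, members that passed, the 5 members with the smallest p where fewer passed, members with an unadjusted p under 0.05 for the difference (up to 10), and up to 6 passing genes of the other lists by size. Members outside this rule were named, after their values were seen, to complete a role. Alternatives changed the scaling, background correction (normexp, offset 50, on median signal), source table, filter, averaging, blocks, arrays fitted, variance trend, test and threshold, or left out a replicate or an array. Sites for the seed were not analysed here.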

Additional observations from a re-analysis of the deposited data

Results flagged for a closer look

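CDKN1B was singled out because its replicate pairs moved in opposite directions in the 2 backgrounds. With the mimic it was lower in 3 of 3 pairs of unsilenced cells and higher in 3 of 3 pairs of AGO2-silenced cells. The difference between the mimic effects was 0.43 on the log2 scale (SE 0.09, 95% confidence interval 0.22 to 0.64), with a limma adjusted p of 0.0896, and so did not pass over all genes. The sirnaAGO2 arrays enter both the fall of CDKN1B on silencing and its rise with the mimic in silenced cells, and their part in this pattern was not tested. How many of all genes show such opposite pairs was not counted.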

How the results depend on the processing

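Over the alternatives no call changed direction. The single genes named had 595 results on the same side of the threshold, 158 calls lost and 21 gained, beside those for CDK6, CCNG1 and AGO2. The 595 hold calls that were kept together with results called in neither setting, so they do not count calls kept. Estimates that passed in neither setting have no called direction.

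The 11 genes changed by the mimic in unsilenced cells became 19 where probes had to be above background on every array (10 shared), 7 without the replicate block, 4 with only the arrays compared, 4 with an absolute log2 change over 0.5 also required and 0 by the methods' t-test after Benjamini-Hochberg adjustment. Leaving out a replicate gave 2 to 4 and a single array 8 to 13. Over all genes the 4119 called here became 4957 of 16396 with probes above background on every array. They became 1987 without the replicate block, 1816 with only the arrays compared, 1559 with the log2 threshold and 0 by the adjusted t-test. Without a replicate 1211 to 2324 of all genes were called, and without a single array 2554 to 4430. The 3 genes in silenced cells became 6 with 75th percentile scaling, 5 with the authors' table, 5 with the strict probe filter, 1 with the slide as a block, 6 by the methods' t-test at p of at most 0.05, and 0 without the replicate block, with only the arrays compared, by the adjusted t-test or with the log2 threshold. They became 0 whichever replicate was left out and 0 to 6 without an array: 6 without sirnaAGO2+mimic145 replicate 1, 0 without sirnaAGO2 replicate 2 or 3 or sirnaAGO2+mimic145 replicate 3, and 1 without cntrl replicate 1, sirnaAGO2 replicate 1 or sirnaAGO2+mimic145 replicate 2. Over all genes the 1324 called here became 2393 with 75th percentile scaling, 2035 with the authors' table and 2091 with the strict probe filter. They became 317 with the slide as a block, 2598 by the t-test at p of at most 0.05 and 78 without the replicate block. With the log2 threshold 587 were called, and with only the arrays compared or by the adjusted t-test 0. Without a replicate 0 to 384 of all genes were called, and without an array 76 to 2291. The 4 genes on silencing became 16 by the t-test at p of at most 0.05, 2 with only the arrays compared, 2 with the log2 threshold, and 0 with the median over probes, without the replicate block or by the adjusted t-test. They became 0 whichever replicate was left out and 0 to 5 without an array: 0 without cntrl replicate 1 or any sirnaAGO2 array, 1 without cntrl replicate 2 or 3, mimic145 replicate 1 or 3 or sirnaAGO2+mimic145 replicate 3, and 2 without mimic145 replicate 2. Over all genes the 471 called on silencing became 3194 by the t-test at p of at most 0.05 and 235 with only the arrays compared. They became 216 with the log2 threshold, 238 with the median over probes, 48 without the replicate block and 0 by the adjusted t-test. Without a replicate 0 to 11 of all genes were called, and without an array 23 to 588. For the difference between mimic effects the count of 0 became 1 with normexp, 1 with the strict filter (CDKN1B in both) and 8 by the t-test at p of at most 0.05. Over all genes the 2 called for this difference became 150, 294 and 1889 in the same settings.

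The median over the 49 genes with the mimic in unsilenced cells was 0.083 with 75th percentile scaling, 0.080 without a probe filter, and 0.00079 to 0.077 without a replicate or an array. On silencing it was 0.039 with 75th percentile scaling and 0.053 to 0.12 without a replicate or an array.

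CCNG1 with the mimic lost its call with the strict filter (-0.25), the median over probes (-0.39), and at -0.30 without the replicate block, with the slide as a block, with only the arrays compared, by both forms of the t-test and with the log2 threshold. It was also lost whichever replicate was left out (-0.35 to -0.20) and in 9 of 12 fits without an array (-0.36 to -0.21). CDK6 with the mimic lost its call by the adjusted t-test (-0.60) and without replicate 3, at -0.70 to -0.50 without a replicate. In silenced cells CDK6, at -0.41, lost it without the replicate block, with the slide as a block, with only the arrays compared, by the adjusted t-test, with the log2 threshold, whichever replicate was left out (-0.47 to -0.34) and in 6 of 12 fits without an array (-0.48 to -0.35). AGO2 on silencing lost its call by the adjusted t-test (-0.71), whichever replicate was left out (-0.78 to -0.64) and without sirnaAGO2 replicate 1 among the single arrays (-0.78 to -0.65). Dim probes limit, for example, CDKN2B (1 of 5 kept) and CCND2 (2 of 6). The cause of these shifts was not tested.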
